A study of Mus musculus with 18 samples.

Results

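The comparison described here sets nontumoral skin of DMBA/TPA-treated Zfp36 fl/fl mice against mock-treated skin of the same genotype, and asks which epidermal genes stayed changed next to papillomas when Zfp36 was intact. Its groups were set by the sample labels, and it was chosen with earlier results of these data known. It uses 6 of the 18 deposited count columns, 3 treated and 3 mock. One pair of the other columns held identical counts, so the series has 17 distinct libraries. DMBA is a mutagen used to initiate skin tumors, and the phorbol ester TPA, which activates protein kinase C, is used to promote their growth. The mock animals did not receive them. Both groups carried Zfp36 alleles flanked by loxP sites and no Cre recombinase, so the gene, which encodes tristetraprolin, a protein that hastens the decay of AU-rich mRNAs, was intact in every library. These mice were the littermate controls of Zfp36 ΔK14 mice (also written ΔEP), in which a Cre driven by the keratin 14 promoter deletes Zfp36 in epidermal cells. According to the study's methods the RNA came from living cells of back skin sorted as EpCAM+ and CD45-, CD140a-, CD31-. The labels were not uniform on this point. They gave whole skin as the source, they called the cells of the treated libraries tumoral, and their extraction text named both homogenized skin and sorted cells, whereas the design text placed the treated libraries in nontumoral skin beside tumors. Nothing in the labels said that replicates were separate animals, so the p-values below measure only the spread between these libraries, which may be technical.

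Cells of the interfollicular epidermis divide in a basal layer held to the basement membrane by integrins and hemidesmosomes, and differentiate as they move up through suprabasal layers. Hair follicles cycle between growth (anagen), regression and rest (telogen). In growth, stem cells of the bulge and germ feed a dividing matrix under the control of factors such as Lef1, Msx2, Hoxc13 and the Dlx proteins, and matrix cells build the hair shaft and the inner root sheath from their own sets of keratins. Wounding, TPA and other irritants switch epidermal cells to a stress programme marked by keratins 6, 16 and 17 and by small cornified envelope proteins, and phorbol esters act in part through AP-1, a dimer of Fos and Jun proteins.

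Promoter sequence is shown for 2 sets of genes that the results turn on, taken from RefSeq windows on GRCm38.p6 that run from 250 bases before to 50 after each start. The first set is 4 inner root sheath keratins, chosen by the naming rule, in which mock replicate 1 stood far from the other mock libraries. Other keratins of the sheath were not searched. Each of the 4 had a TATAAA box (capitals) upstream of its start, shown 5′ to 3′ on the gene's own minus strand, at chr11:99322965-99322992 for Krt25, chr11:99374917-99374944 for Krt28, chr15:101743121-101743148 for Krt71 and chr15:101802374-101802401 for Krt73.
Krt25: tgagaatcgtcTATAAAagggcaaacaa
Krt28: ccacaaccgtgTATAAAagctcaaagaa
Krt71: tgccaagcataTATAAAggcacctgctg
Krt73: ctcttgagctcTATAAAggggaagacca
The second set holds the genes of the naming rule named below whose window contained TGANTCA (capitals), the AP-1 or TPA response element. Sprr1a had it at 146 and at 116 bases before its start, at chr3:92486010-92486037 and chr3:92485980-92486007 on the minus strand. The others lay at chr5:92348946-92348973 (Cxcl10, minus strand), chr10:19015529-19015556 (Tnfaip3, minus strand), chr17:34670470-34670497 (Tnxb, plus strand), chr10:56377271-56377298 (Gja1, plus strand), chr12:80113125-80113152 (Zfp36l1, minus strand) and chr6:49036516-49036543 (Gpnmb, plus strand), where it began 8 bases after the start.
Sprr1a, distal: taactaaagcTGAGTCAgagggtgaact
Sprr1a, proximal: gggaggagggTGAGTCAtaggtgactgg
Cxcl10: ggagccttgcTGAGTCAtctccaaagtc
Tnfaip3: aatgcccaggTGACTCAcgcggggacac
Tnxb: tgacctttacTGAGTCAgttctcacacg
Gja1: tccttccagtTGAGTCAgtggcttgaaa
Zfp36l1: accgcatggcTGATTCAacctcagtgtc
Gpnmb: caggggcaagTGACTCAtgagcacgagt
These 7 genes did not move together. Sprr1a and Cxcl10 were higher in every treated library, Gja1 and Gpnmb were called higher and Tnfaip3 and Tnxb lower only without mock replicate 1, and Zfp36l1 was called in neither fit. For the shares that follow both motifs were searched on both strands anywhere in the window, whereas the TATAAA boxes shown were taken from the gene's own strand close to its start. Neither motif overlaps the other's letters. TGANTCA was present in 5.1% of the 10545 promoters matched to tested genes, and TATAAA in 7.17%. TGANTCA was found in 6.1% of promoters of genes called higher in treated skin without mock replicate 1, and in 9.24% of promoters of genes called lower. TATAAA was found in 10.1% and 10.6% of the same promoters. Among genes whose 3 treated and 3 mock libraries did not overlap and differed over 2-fold, TGANTCA was present in 16 of 232 promoters of genes higher in treated skin (6.9%) and in 0 of 36 of genes lower. A match is a description of the letters in the window and was not tested as a binding site.

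The 6 libraries held 4124233 to 9617985 counts, with counts for 24891 to 27435 genes and 3.35% to 6.06% of counts on mitochondrial genes. Levels are given as CPM, a gene's count relative to the normalized total of its library, listed as mock replicates 1, 2 and 3 and then treated replicates 1, 2 and 3. Epcam, the marker used to sort the cells, lay between 90.6 and 127.8 CPM in all 6. Ptprc, which encodes CD45, had at most 1.41 CPM. Pdgfra, which encodes CD140a, lay at 3.65, 24.7 and 11.7 CPM in mock and 5.09, 6.78 and 6.39 in treated libraries, and Pecam1, which encodes CD31, lay between 9.64 and 29.0 CPM. Defining markers of fibroblasts and vessels were therefore above 0 in the sorted cells. In bulk RNA, fewer cells of a type and less RNA per cell cannot be told apart.

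One mock library stood apart. Across genes, log2 CPM of mock replicates 2 and 3 correlated with each other at r = 0.973, whereas mock replicate 1 correlated with them at 0.836 and 0.827 and with the 3 treated libraries at 0.948, 0.928 and 0.957. These values describe genes within libraries and carry no test. Among the Zfp36 ΔK14 skin libraries, treated replicate 1 correlated most with mock replicate 1 of fl/fl, at 0.975. The closest other mock library was mock replicate 1 of Zfp36 ΔK14 (0.971), so the same mock replicate number stood apart in both genotypes. The labels give neither the hair cycle stage nor the day of sampling, and the part of either in this split was not tested. Values of all 3 mock libraries are therefore shown for most of the genes below, and tests are given with mock replicate 1, without it or both.

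With all 6 libraries, 16601 genes were tested. The edgeR quasi-likelihood test called 0 of them (0%) at a Benjamini-Hochberg adjusted p below 0.05 with a fold change over 2. At an unadjusted p below 0.05 there were 913 genes, 529 higher and 384 lower in treated skin, and the smallest adjusted p was 0.0585. DESeq2 on the same libraries called 118 genes, 101 higher (0.608% of those tested) and 17 lower (0.102%), and edgeR's exact test called 104. Without mock replicate 1, the quasi-likelihood test called 2587 of 17103 genes, 1363 higher (7.97%) and 1224 lower (7.16%). The 2 sets were nearly nested: 117 of the 118 DESeq2 calls were also called without mock replicate 1, which is 99.2% of the first set and 4.52% of the second. In 897 genes (5.4%) every treated library lay above every mock library, and in 798 (4.81%) every treated library lay below.

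Most calls made without mock replicate 1 were in genes where that library looked like treated skin. On a scale where 0 is the mean log2 CPM of mock replicates 2 and 3 and 1 is the treated mean, mock replicate 1 had a median position of 1.26 over the 2587 genes. It lay nearer the treated mean in 2387 of them (92.3%), and beyond all 3 treated libraries in 1416 (54.7%). Of the 1363 genes called higher, 327 separated all 3 treated from all 3 mock libraries (24%). Of the 1224 called lower, 97 did (7.92%). Among the 118 DESeq2 calls the order was the opposite: mock replicate 1 lay nearer the other mock libraries in 103, and 111 separated all 6 libraries (94.1%). That fit counts mock replicate 1 as mock and so favors such genes.

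**Figure D1:**
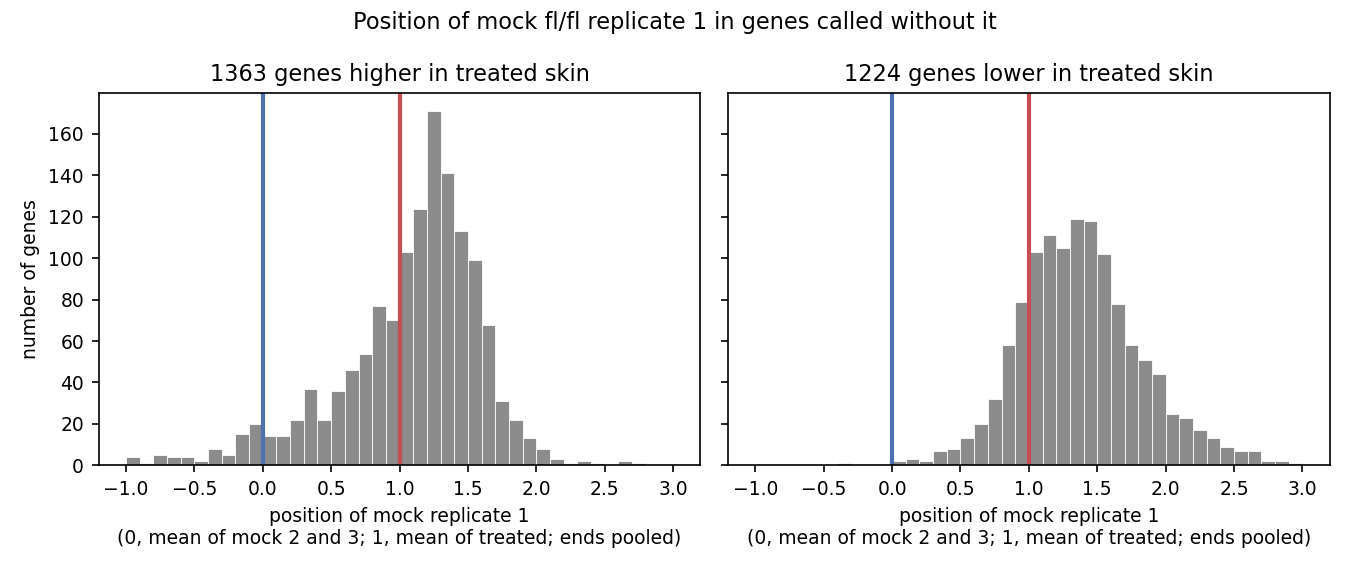
Number of genes (vertical axis) by the position of mock fl/fl replicate 1 (horizontal axis), for the 1363 genes called higher and the 1224 called lower in treated skin without that library. The blue line at 0 marks the mean of mock replicates 2 and 3 and the red line at 1 the treated mean, and most genes lie beyond 0.5 on the treated side, with medians of 1.2 and 1.35.

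Genes that separated treated from mock skin in all 6 libraries included the stress keratins Krt6a and Krt17. Krt6a, a keratin of wounded and hyperplastic epidermis at chr15:101689910-101694307 (GRCm38, minus strand), lay at 17.9, 36.8 and 26.5 CPM in mock and 165, 147 and 147 in treated skin. The groups did not overlap, and mock replicate 1 was the lowest library. Its log2 fold change was 2.52 ± 0.28 (SE), with an adjusted p of 0.0844 by edgeR and 3.26e-12 by DESeq2, and 2.32 ± 0.19 without mock replicate 1 (edgeR adjusted p = 9.82e-04). Reads of Krt6a and of Gm44342, a gene on the opposite strand inside it at chr15:101692211-101692339, cannot be told apart unless the counting used strand, which is not given in the sources used here, and Krt6a and Krt6b are close paralogs. Krt17, the keratin of the outer root sheath and of activated epidermis, lay at 467, 382 and 396 CPM in mock and 1035, 976 and 832 in treated skin (log2 fold change 1.20 ± 0.20, adjusted p = 0.269 by edgeR and 1.37e-05 by DESeq2). Sprr1a, a cornified envelope precursor, lay at 17.4, 19.4 and 27.5 CPM in mock and 83.8, 71.7 and 38.0 in treated skin, with treated replicate 3 nearest to mock (DESeq2 adjusted p = 0.0106). Lcn2, an iron-binding protein of inflamed epithelia, rested on 2, 3 and 2 counts in mock and lay at 3.79, 5.25 and 2.35 CPM in treated skin (DESeq2 adjusted p = 0.00103).

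Not all of the stress programme followed. Of the 10 stress keratins and alarmins tested, 5 separated all 6 libraries in the higher direction, against 5.4% of all genes. DESeq2 called 4 higher, against 0.608%. The list median log2 fold change was 1.41 against -0.03 over all genes. Without mock replicate 1, 5 of 10 were called higher against a background of 7.97%, and mock replicate 1 was on the mock side in all 5. Krt16, the usual partner of keratin 6, was not among them. It lay at 17.7, 121 and 134 CPM in mock and 70.7, 89.0 and 57.9 in treated skin, so the treated libraries fell between mock replicate 1 and the other mock libraries (log2 fold change -0.30 ± 0.65). Krt6b, at 4.20, 28.4 and 16.2 against 14.2, 16.8 and 11.1 CPM, overlapped between the groups. S100a8, an alarmin, stayed at or below 2.62 CPM in all 6 libraries.

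A second group was made of follicle stem cell genes. Lgr5, a receptor for R-spondins that marks cycling follicle stem cells (chr10:115450311-115587780), lay at 38.8, 19.6 and 19.3 CPM in mock and 113, 125 and 131 in treated skin. Mock replicate 1 lay above the other mock libraries and below every treated one. The log2 fold change was 2.25 ± 0.32 (adjusted p = 0.249 by edgeR and 1.76e-06 by DESeq2) and 2.69 ± 0.15 without mock replicate 1 (edgeR adjusted p = 3.39e-04). Sox9, the transcription factor that maintains bulge and outer root sheath cells, lay at 70.1, 65.6 and 74.7 CPM in mock and 153, 143 and 129.5 in treated skin, with all 3 mock libraries close together (log2 fold change 1.03 ± 0.16, DESeq2 adjusted p = 3.55e-05). Tbx1, a factor of bulge stem cell self-renewal, lay at 18.1, 5.87 and 5.20 CPM in mock and 44.7, 49.6 and 45.5 in treated skin (DESeq2 adjusted p = 0.00680). Sfrp1, a secreted Wnt inhibitor of the bulge, lay at 58.3, 60.5 and 55.9 against 121, 100.3 and 106 CPM (log2 fold change 0.92 ± 0.16), under the fold threshold. Of the 16 stem cell genes tested, 7 separated all 6 libraries in the higher direction and 0 in the lower, against 5.4% and 4.81% of all genes, and DESeq2 called 3, against 0.608%. In the fit without mock replicate 1, 8 were called higher and 2 lower, against 7.97% and 7.16%.

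The other stem cell markers split. Lhx2, another bulge factor, lay at 54.3, 17.4 and 9.64 CPM in mock and 56.9, 54.0 and 54.3 in treated skin, so mock replicate 1 was level with treated skin and the call without it (log2 fold change 2.09 ± 0.26, edgeR adjusted p = 0.00242) was lost with it. Gli2 and Gli1, effectors of Sonic hedgehog signaling, were called higher on the same terms. Gli2 separated all 6 libraries, at 41.9, 13.3 and 8.77 against 66.7, 58.6 and 66.2 CPM, and Gli1 did not, at 44.0, 5.68 and 4.05 against 31.2, 20.98 and 23.3. Nfatc1, which holds stem cells at rest, lay at 8.30, 76.2 and 84.8 CPM in mock and 37.4, 33.0 and 17.9 in treated skin, and Krt15, a keratin of the resting bulge and of basal cells, lay at 264, 1534 and 1645 against 352, 782 and 289. Both were called lower without mock replicate 1 (adjusted p = 0.0123 and 0.0187 by edgeR), and in both that library lay below all 3 treated ones. Cd34, a bulge surface marker, was 11.3, 15.9 and 7.42 CPM in mock and 23.4, 18.4 and 28.7 in treated skin, with no overlap, and did not pass with 6 or with 5 libraries.

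**Figure D2:**
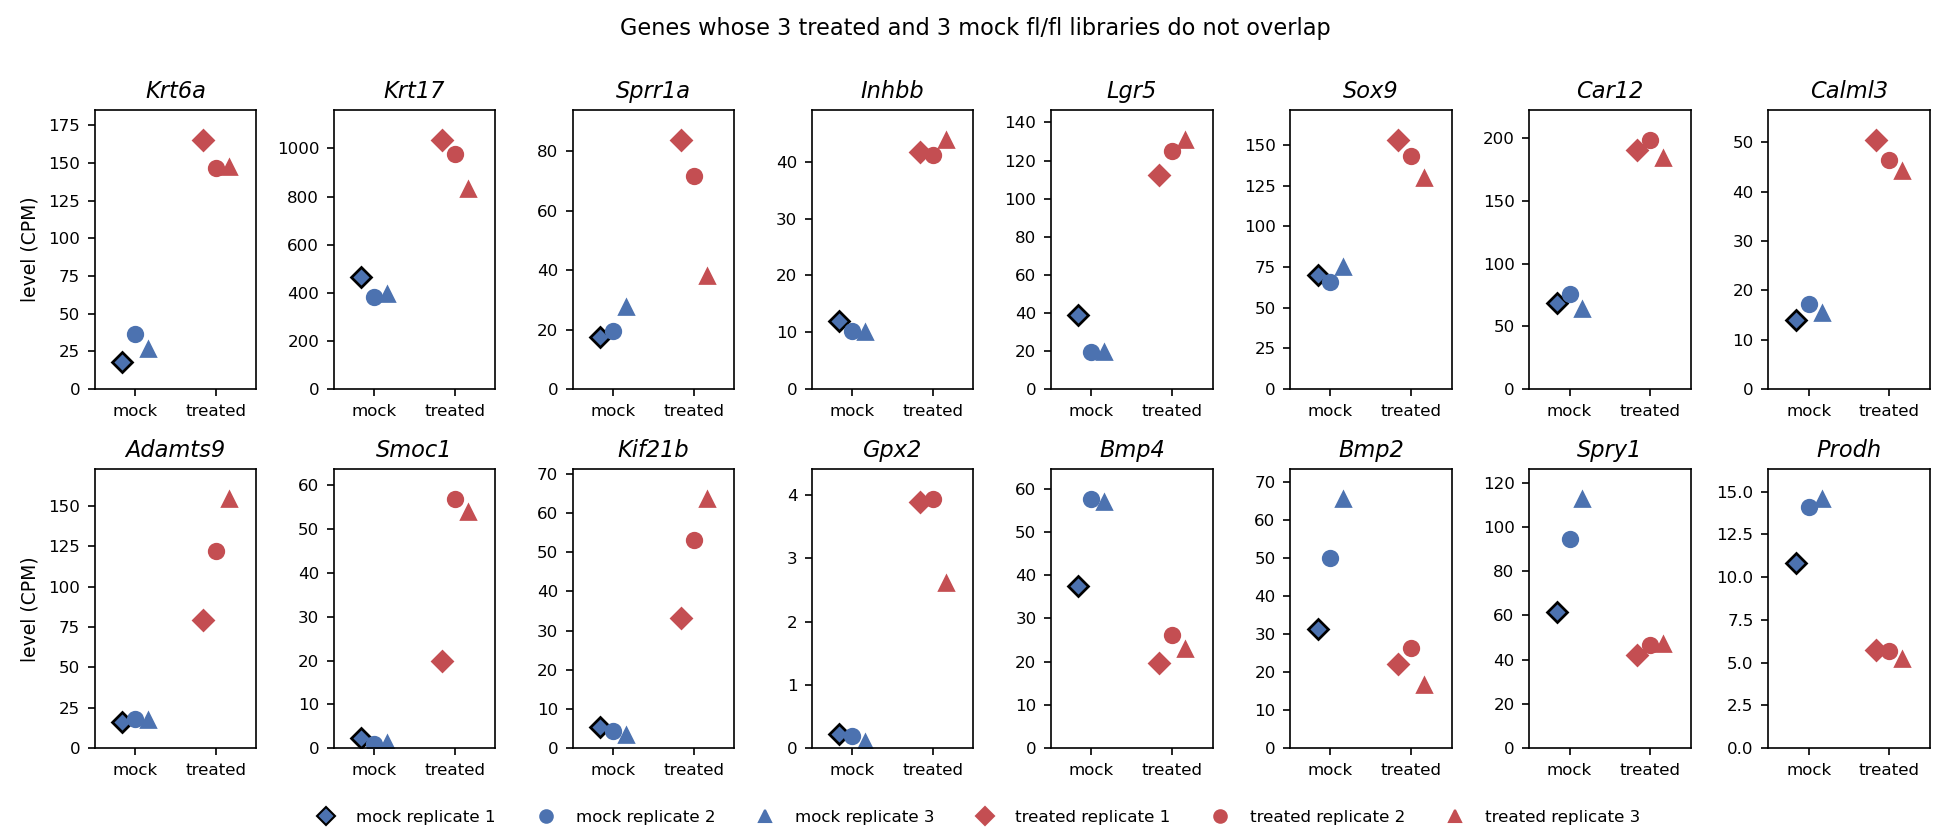
Levels of 16 genes whose treated and mock libraries did not overlap, as CPM on a linear axis that starts at 0, with 1 point for each mock (blue) and treated (red) fl/fl library and mock replicate 1 outlined. Krt6a, Inhbb, Car12 and Calml3 show narrow groups, whereas Smoc1, Adamts9 and Sprr1a differ among treated libraries and Bmp4, Bmp2 and Spry1 have mock replicate 1 as the mock library nearest to treated skin.

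Among ligands of the TGF-beta superfamily, DESeq2 called Inhbb higher and Bmp4 lower in all 6 libraries. Inhbb, which encodes the activin B subunit (chr1:119415465-119422248), lay at 12.1, 10.2 and 10.02 CPM in mock and 41.8, 41.1 and 43.8 in treated skin. The spread within each group was small beside the gap, and this gene shared the smallest adjusted p of the 6-library edgeR test (log2 fold change 1.98 ± 0.18, adjusted p = 0.0585, DESeq2 2.77e-14). Bmp4, a ligand that keeps follicle stem cells at rest (chr14:46383520-46390669), lay at 37.6, 57.6 and 57.0 CPM in mock and 19.7, 26.2 and 22.9 in treated skin (log2 fold change -1.13 ± 0.23, DESeq2 adjusted p = 0.0113, edgeR 0.402). Bmp2, its close relative, lay at 31.3, 49.9 and 65.4 against 22.1, 26.2 and 16.5 CPM and did not overlap, but passed only without mock replicate 1 (log2 fold change -1.40 ± 0.22, edgeR adjusted p = 0.00536). Of the 23 genes of the BMP, TGF-beta and activin list, 8 were called higher and 2 lower without mock replicate 1, against 7.97% and 7.16% of all genes, so the share lower was near the background. Bmp2 and Bmp4 were counted in the hair matrix list instead. Those higher included Smad6 and Smad7, inhibitors of the pathway. Smad7 lay at 127, 15.7 and 18.5 CPM in mock and 64.8, 51.1 and 101 in treated skin. Id1 and Id3, targets of BMP signaling, were also called higher, at 137, 23.1 and 33.2 against 71.6, 61.2 and 102 CPM for Id1. In Smad7, Id1 and Id3 mock replicate 1 was the highest library of the 6, unlike in Inhbb.

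Several genes with small p in all 6 libraries encode secreted or membrane proteins that act at the extracellular matrix. They were put side by side after their values were seen, and collagens of fibroblasts, given further on, lay lower. Adamts9, a secreted protease that cleaves proteoglycans, lay at 15.9, 18.2 and 17.2 CPM in mock and 79.6, 122 and 154 in treated skin (log2 fold change 2.81 ± 0.27, adjusted p = 0.0585 by edgeR and 2.43e-14 by DESeq2). Tll1, a protease of the BMP1 family, lay at 0.774, 0.979 and 1.16 against 8.44, 8.96 and 12.2 CPM (3.34 ± 0.33, DESeq2 adjusted p = 1.11e-09). Smoc1, a matrix protein that binds BMP pathway components, lay at 2.21, 0.979 and 1.25 CPM in mock and 19.9, 56.8 and 53.8 in treated skin (4.83 ± 0.54, DESeq2 adjusted p = 2.47e-14), with treated replicate 1 lower than the other two. Col14a1, a fibril-associated collagen, lay at 4.98, 4.89 and 5.59 against 30.6, 50.9 and 39.7 CPM (2.97 ± 0.25, DESeq2 adjusted p = 1.02e-16). Timp2, an inhibitor of matrix metalloproteases, lay at 32.1, 41.3 and 32.6 against 70.6, 82.6 and 88.6 CPM (1.20 ± 0.19, DESeq2 adjusted p = 6.98e-05). Itgb8, the integrin subunit that activates latent TGF-beta, lay at 17.8, 30.5 and 28.5 against 67.3, 65.1 and 48.9 CPM (1.26 ± 0.26, DESeq2 adjusted p = 0.0100). In all 6 genes mock replicate 1 lay on the mock side of the gap. Their choice by fits that count this library as mock favors that order, so it is not a separate result. Of the 11 matrix proteases and inhibitors tested with 6 libraries, only Timp2 separated all libraries or was called by DESeq2, against 5.4% and 0.608% of all genes. By the fit without mock replicate 1, 4 of 13 were called higher and 1 lower, against 7.97% and 7.16%. Adamts9, Tll1 and Smoc1 were not in that list.

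The remaining genes with the smallest p in all 6 libraries had no common role. Car12, a membrane carbonic anhydrase, lay at 68.7, 75.8 and 63.9 CPM in mock and 191, 199 and 185 in treated skin (log2 fold change 1.48 ± 0.16, adjusted p = 0.0814 by edgeR and 2.43e-14 by DESeq2). Calml3, a calmodulin-like protein of epithelia, lay at 14.0, 17.2 and 15.4 against 50.4, 46.3 and 44.2 CPM (1.61 ± 0.18, DESeq2 adjusted p = 1.06e-10). Kif21b, a kinesin motor, lay at 5.42, 4.50 and 3.47 against 33.1, 53.1 and 63.5 CPM (3.49 ± 0.33, DESeq2 adjusted p = 1.40e-15). Pik3cg, the catalytic subunit p110 gamma of phosphoinositide 3-kinase, is best known from leukocytes. It lay at 0.996, 1.17 and 1.06 against 10.3, 9.40 and 10.6 CPM (3.23 ± 0.27, DESeq2 adjusted p = 1.66e-11), while Ptprc, the pan-leukocyte marker, was at 1.41, 0 and 0.130 CPM in the same treated libraries. Gpx2, a glutathione peroxidase controlled by NRF2, rested on 2, 1 and 1 counts in mock and lay at 3.90, 3.93 and 2.61 CPM in treated skin (DESeq2 adjusted p = 3.66e-04), and it overlaps Fntb on the opposite strand. Cdkn2b, which encodes the cell cycle inhibitor p15, lay at 3.21, 4.50 and 3.37 against 8.66, 10.9 and 9.77 CPM (1.42 ± 0.26, DESeq2 adjusted p = 0.00489). Vmp1, an autophagy gene chosen after its values were seen, lay at 44.7, 46.4 and 39.0 against 79.0, 101 and 90.2 CPM (DESeq2 adjusted p = 2.77e-04). Its locus at chr11:86583865-86683836 contains Mir21a, whose own counts were 1.22, 0.979 and 1.83 CPM in mock and 3.57, 5.03 and 4.30 in treated skin and did not pass by DESeq2 (adjusted p = 0.0861).

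Fewer genes were lower in every treated library. Besides Bmp4, DESeq2 called Camk1d, a calcium- and calmodulin-dependent kinase, at 20.9, 74.98 and 77.8 CPM in mock and 13.6, 14.2 and 8.99 in treated skin (log2 fold change -2.22 ± 0.51, adjusted p = 0.00754). Prodh, the first enzyme of proline breakdown, lay at 10.8, 14.1 and 14.6 against 5.74, 5.68 and 5.21 CPM (-1.23 ± 0.23, DESeq2 adjusted p = 0.00927). Plcxd2 lay at 13.7, 17.2 and 26.0 against 4.33, 5.46 and 7.17 CPM (-1.73 ± 0.33, DESeq2 adjusted p = 0.00451). Gdnf, a growth factor for neurons and stem cells, lay at 2.21, 18.6 and 18.9 CPM in mock and 1.19, 2.19 and 0.521 in treated skin, where mock replicate 1 was close to treated replicate 2 (DESeq2 adjusted p = 0.0141). Hoxa5, a homeobox gene, did not overlap, at 16.3, 32.5 and 40.2 against 10.9, 13.8 and 8.73 CPM, but passed only without mock replicate 1 (edgeR adjusted p = 0.00274). Adamts9, Timp2, Bmp4, Prodh, Plcxd2, Hoxa5 and Spry1 overlap other counted genes, so their counts are uncertain to that extent. The same holds, among others given further on, for Col3a1, Hmgcs1, Dst, Krt10, Nr1d1, Zfp36 and Zfp36l1.

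Some collagen mRNAs typical of fibroblasts were also lower. Col3a1 lay at 105, 357 and 117 CPM in mock and 54.6, 35.4 and 56.3 in treated skin (log2 fold change -1.97 ± 0.52, DESeq2 adjusted p = 0.0353). Col1a1 (257, 724 and 226 against 113, 86.8 and 140.1 CPM) and Col1a2 (139, 458 and 99.7 against 57.5, 41.5 and 66.2 CPM) did not overlap either and missed the threshold (DESeq2 adjusted p = 0.0515 and 0.0609). Of the 13 fibroblast markers tested with 6 libraries, 3 separated all of them, in the lower direction, against 4.81% of all genes. The fit without mock replicate 1 called 5 of 14 lower and 2 higher, against 7.16% and 7.97%. Those higher were Dcn, which encodes decorin (842, 96.9 and 46.9 CPM in mock and 387, 204.8 and 164 in treated skin), and Fbln1, which encodes fibulin 1 (112, 15.3 and 7.61 against 77.3, 64.9 and 69.1), with mock replicate 1 the highest library in both. The summed level of the fibroblast list was 1519, 1949 and 663 CPM in mock and 825.6, 552.3 and 575.2 in treated skin, and mock replicate 2 had the most, with the highest Pdgfra. The part of residual dermal RNA in the collagen values was not tested. Summed levels of leukocyte markers (19.25 to 49.53 CPM in mock, 25.41 to 59.3 in treated) and of endothelial markers (21.39 to 42.87 and 24.89 to 33) overlapped. Of the 7 leukocyte genes tested with 6 libraries, DESeq2 called 1 higher, against 0.608% of all genes. That was H2-Ab1, an MHC class II chain, at 0.664, 1.96 and 1.64 against 4.87, 5.90 and 4.95 CPM (DESeq2 adjusted p = 0.0216).

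The genes of the growing follicle gave very large differences without mock replicate 1, and no inner root sheath or shaft gene was called with it by edgeR or DESeq2. Krt71, a keratin of the inner root sheath (chr15:101733949-101743109), had 3 and 4 counts in mock replicates 2 and 3, against 189.9, 171 and 262 CPM in treated skin. Mock replicate 1, at 572 CPM, was above every treated library. The log2 fold change was therefore 8.82 ± 0.37 without mock replicate 1 (edgeR adjusted p = 1.73e-04) and 0.11 ± 2.00 with it. Krt25, with 5 counts in each of mock replicates 2 and 3, lay at 449 CPM in mock replicate 1 and at 226, 192 and 318 in treated skin. Krt28 and Krt73 had the same order, with mock replicate 1 at 285 and 85.8 CPM above treated ranges of 123 to 215 and 35.8 to 56.4. Tchh, which encodes trichohyalin, the matrix protein of the sheath, lay at 615, 9.40 and 10.5 CPM in mock and 412, 396 and 699.5 in treated skin. Padi3, whose enzyme modifies trichohyalin, had no counts in mock replicates 2 and 3 and was at least 148.3-fold higher in treated skin, taking 3 counts over the 2 libraries as the floor, while mock replicate 1 stood at 65.5 CPM and treated skin at 22.4, 17.9 and 45.9. Of the 14 inner root sheath genes tested without mock replicate 1, 11 were called higher and 0 lower, against 7.97% and 7.16% of all genes, with a median log2 fold change of 5.74 that did not change with Padi3 set to its bound. None of the 13 tested with 6 libraries separated the groups, against 5.4% higher and 4.81% lower over all genes.

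Hair shaft keratins behaved alike. Krt35, a cuticle keratin, had 3 and 2 counts in mock replicates 2 and 3 and lay at 134 CPM in mock replicate 1 and 51.9, 50.9 and 118 in treated skin. Krt87 had 1 count in each of those mock libraries, 29.3 CPM in mock replicate 1 and 14.4, 11.4 and 21.1 in treated skin. Dsg4, the desmoglein of the hair shaft, lay at 27.3 CPM in mock replicate 1, with 1 and 0 counts in the other mock libraries, and at 14.9, 17.0 and 33.1 CPM in treated skin. Of 15 shaft genes tested, 13 were called higher and 0 lower without mock replicate 1 (7.97% and 7.16% over all genes), and mock replicate 1 was nearer the treated mean in all 13. In 1 of the 15 (5.4% over all genes) every treated library was above every mock library. That was Dsc2, the desmocollin of many epithelia, at 10.3, 6.46 and 5.20 against 11.4, 12.7 and 18.0 CPM, and it did not pass with 6 libraries (DESeq2 adjusted p = 0.547). Hair keratins are close paralogs, and the counting could have divided shared reads among them.

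Several transcription factors and signals of the hair matrix had the same order of libraries. Dlx2 had 1 and 3 counts in mock replicates 2 and 3, against 214 CPM in mock replicate 1 and 88.2, 73.9 and 86.8 in treated skin. Dlx3, which regulates shaft and sheath genes, lay at 213, 1.37 and 1.35 CPM in mock and 166, 109.7 and 138 in treated skin (log2 fold change 6.69 ± 0.30 without mock replicate 1, edgeR adjusted p = 1.96e-04, and 0.93 ± 1.64 with it). Hoxc13 (66.8, 4.50 and 3.37 against 60.6, 50.05 and 64.9 CPM), Msx2 (113, 3.33 and 3.95 against 72.1, 48.1 and 62.0) and Lef1 (198, 5.87 and 2.31 against 137, 70.8 and 88.3) gave the same picture. Shh, the ligand that drives matrix growth, lay at 22.01, 0.783 and 0.385 CPM in mock and 21.5, 7.65 and 5.34 in treated skin, so treated replicate 1 matched mock replicate 1 and the others lay lower. Foxn1, which also serves the interfollicular epidermis, lay between 14.1 and 21.2 CPM in all 6 libraries and did not pass. Of the 20 matrix genes tested, 10 were called higher and 5 lower without mock replicate 1, against 7.97% and 7.16% of all genes. With 6 libraries 0 separated in the higher direction and 3 in the lower (Bmp2, Bmp4 and Axin2), against 5.4% and 4.81%. DESeq2 called 1 lower, Bmp4, against 0.102% of all genes. Gata3, an inner root sheath factor also used in the epidermis, was one of those lower, at 168, 619 and 630.0 against 192, 254 and 143 CPM.

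Single genes of cell junctions, amino acid transport and pigment cells are given next. Gjb2 and Gja1 encode the gap junction proteins connexin 26 and 43. Gjb2 lay at 577, 3.33 and 2.99 CPM in mock and 386, 276 and 565 in treated skin, and Gja1 at 1889, 377 and 404 against 1256, 1285 and 1819.9. Their list had no common direction: of 26 junction and adhesion genes, 5 were called higher and 5 lower without mock replicate 1, against 7.97% and 7.16% of all genes, with a median log2 fold change of -0.62. Slc7a8, an amino acid transporter, had 3 and 16 counts in mock replicates 2 and 3, 161 CPM in mock replicate 1 and 176, 164 and 254 CPM in treated skin. Kit, the melanocyte receptor tyrosine kinase, and Gpnmb, a melanosome protein, were called higher without mock replicate 1, at 83.0, 14.9 and 6.65 against 72.6, 45.2 and 108 CPM for Kit. Gpnmb, at 269, 13.1 and 21.01 against 111, 83.9 and 92.8 CPM, had a log2 fold change of 2.504 ± 0.24 without mock replicate 1 and -0.08 ± 1.06 with it. Of the 9 melanocyte genes, these 2 were called higher and 0 lower, against 7.97% and 7.16%. The summed level of the melanocyte list was 696, 151.1 and 124.5 CPM in mock and 308.2, 277.8 and 265.6 in treated skin.

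Many proliferation and some sterol synthesis genes were highest in mock replicate 1 and higher in treated skin than in the other mock libraries. The summed level of the 28 replication and mitosis genes was 3827, 1482 and 859.5 CPM in mock and 2948, 2068 and 2042 in treated skin. Without mock replicate 1, 20 of them were called higher and 0 lower, against 7.97% and 7.16% of all genes. With 6 libraries 0 of them separated in either direction, against 5.4% higher and 4.81% lower over all genes. Rrm2, a subunit of ribonucleotide reductase, lay at 171, 20.2 and 7.52 CPM in mock and 92.8, 79.8 and 103 in treated skin (log2 fold change 2.82 ± 0.39 without mock replicate 1, edgeR adjusted p = 0.00350). Mcm7, a replicative helicase subunit, lay at 181, 42.5 and 30.1 against 129, 109 and 119.6 CPM. Mki67, the marker of cycling cells, overlapped even without mock replicate 1, at 422 and 255 CPM in mock replicates 2 and 3 against 719.6, 335 and 272, and did not pass (adjusted p = 0.521 by edgeR). Replication-dependent histone genes, a family chosen after its values were seen, had 51 of 65 members called higher and 0 lower without mock replicate 1 (7.97% and 7.16% over all genes), and 0 that separated all 6 libraries (5.4% and 4.81%). In the cholesterol list, 7 of 18 were called higher and 0 lower by the same fit, against 7.97% and 7.16% of all genes. With 6 libraries 0 separated in the higher direction and 2 in the lower, against 5.4% and 4.81%. Called genes included Sqle, an early enzyme of sterol formation, at 138, 27.4 and 27.8 against 74.7, 66.9 and 97.2 CPM. Hmgcs1, an upstream enzyme of the same pathway, differed from it, at 355, 270.4 and 325 CPM in mock and 234, 181 and 179 in treated skin, with no overlap and no call (edgeR adjusted p = 0.787 with 6 libraries and 0.0617 without mock replicate 1).

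**Figure D3:**
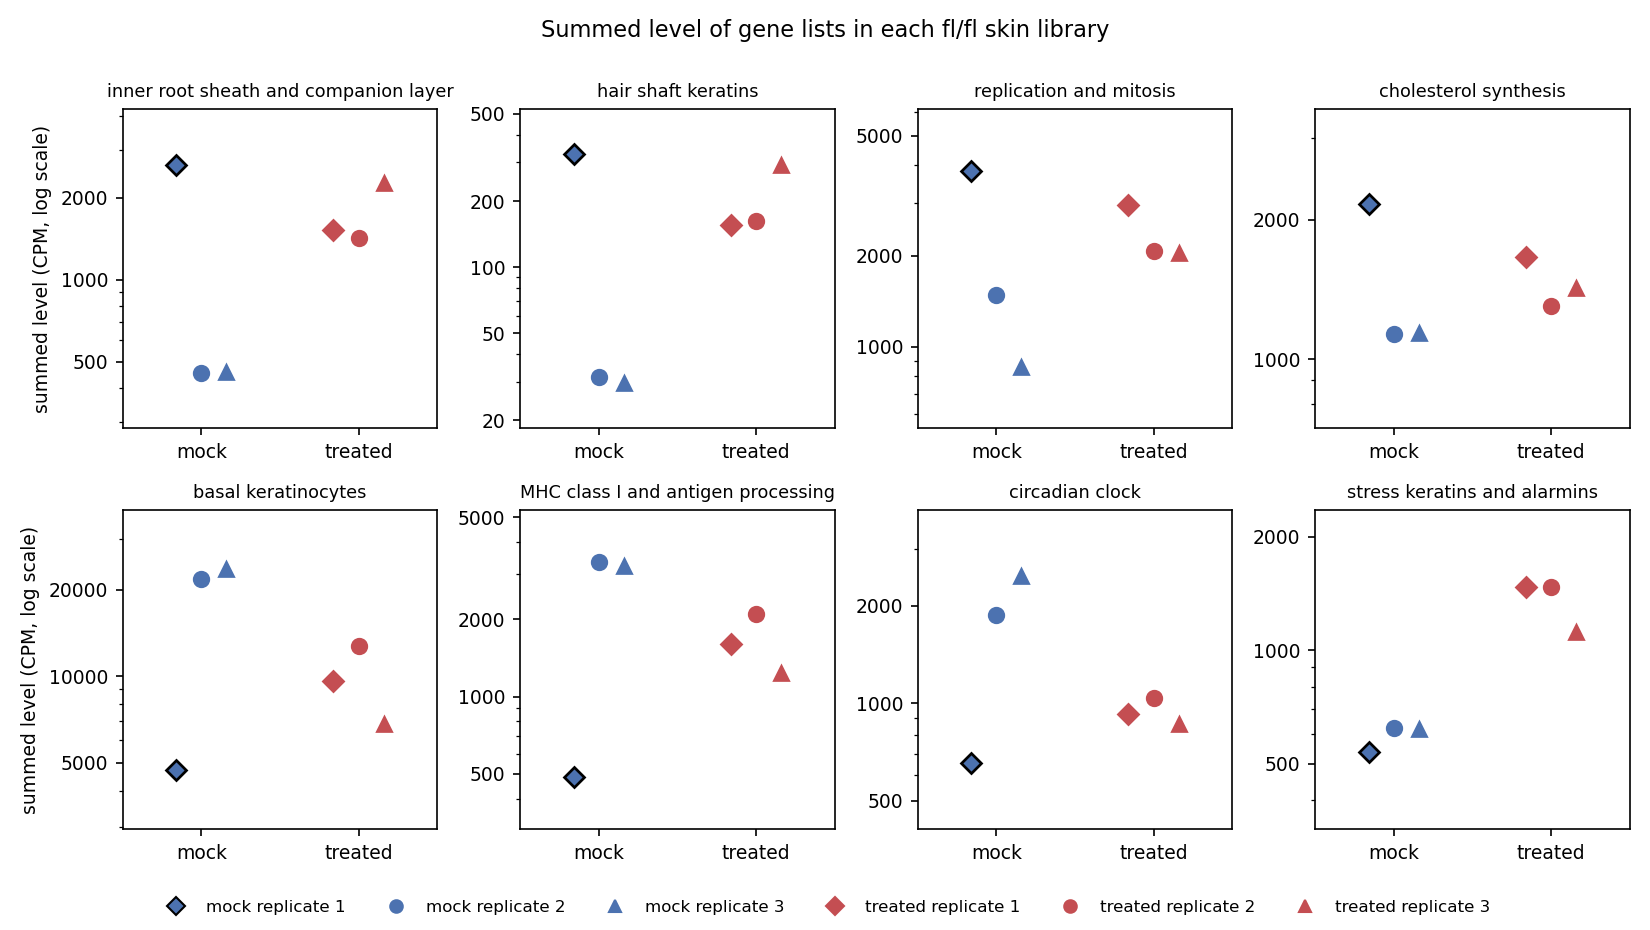
Summed CPM (log axis) of 8 gene lists in each fl/fl library, with mock in blue, treated in red and mock replicate 1 outlined. In the inner root sheath, shaft, replication and cholesterol lists mock replicate 1 is the highest library, in the basal, MHC class I and clock lists it is the lowest, and in the stress list all 3 mock libraries (536.1 to 620.4 CPM) lie below all 3 treated ones (1118 to 1470).

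Genes of the basal layer were lower in treated skin than in mock replicates 2 and 3, and lower again in mock replicate 1. The summed level of the basal list was 4707, 21700 and 23640 CPM in mock and 9609, 12760 and 6851 in treated skin. Without mock replicate 1, 9 of 14 were called lower and 0 higher against a background of 7.16% lower, and in all 9 mock replicate 1 was nearer the treated mean. Itga6, the integrin subunit of hemidesmosomes, lay at 219.6, 999 and 1310.2 CPM in mock and 359, 422 and 238 in treated skin (log2 fold change -1.73 ± 0.26 without mock replicate 1, edgeR adjusted p = 0.00463, and -1.29 ± 0.61 with it). Lama3, a chain of laminin 332, lay at 108, 406 and 502 against 175, 196 and 206 CPM, and Dst, the hemidesmosomal plakin, at 459, 2734 and 3875 against 1024, 1174 and 575. Col17a1, the hemidesmosomal collagen, lay at 273, 2507 and 3539.5 CPM in mock and 847, 1152 and 388 in treated skin. Tnxb, which encodes tenascin X, a matrix glycoprotein, was among the genes with the smallest p in the lower direction, at 12.5, 239 and 289 against 29.1, 34.1 and 17.6 CPM (edgeR adjusted p = 9.11e-04 without mock replicate 1 and 0.849 with it). Krt14, the basal keratin, was 602, 4966 and 4403 against 2352, 3350.0 and 1558 CPM and did not pass (edgeR adjusted p = 0.0734 without mock replicate 1), whereas its partner Krt5 passed narrowly (1485, 6948 and 5979.7 against 2823, 4254 and 2271 CPM, adjusted p = 0.0438 by edgeR).

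Suprabasal genes showed mostly wide spread within the treated group. Krt10, the main keratin of differentiating cells, lay at 419, 4399.5 and 3380.1 CPM in mock and 1172, 2394 and 358 in treated skin, and did not pass in either fit (edgeR adjusted p = 0.922 and 0.113). Its partner Krt1 varied with it, at 236, 3080.0 and 2181 against 1077, 2093 and 305 CPM. Of the 20 suprabasal genes tested without mock replicate 1, 3 were called lower and 1 higher, against 7.16% and 7.97% of all genes, so the share higher was below the background. Dsg1a, a desmoglein of differentiating layers, was lower, at 276, 1416 and 1420.3 against 384, 491 and 282 CPM, and Tgm1, the transglutaminase that crosslinks the cornified envelope, was higher, at 10.6, 1.37 and 2.60 against 9.20, 8.09 and 8.86. Treated replicate 3 had the lowest suprabasal sum of the 6 libraries (1607 CPM), next to mock replicate 1 (1703).

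Some antigen presentation, cytokine and interferon genes were called lower without mock replicate 1. The summed MHC class I list was 486.7, 3338 and 3236 CPM in mock and 1607, 2102 and 1236 in treated skin, and 5 of 13 members were called lower and 0 higher, against 7.16% and 7.97% of all genes. Nlrc5, the transactivator of MHC class I genes, lay at 10.7, 122 and 177 against 51.2, 58.1 and 46.6 CPM (log2 fold change -1.50 ± 0.19 without mock replicate 1, edgeR adjusted p = 0.00246), and Tap1, a peptide transporter, at 15.9, 111 and 117 against 55.5, 63.8 and 41.3. Of the cytokine and chemokine genes, 6 of 20 were called lower and 1 higher, against 7.16% and 7.97% of all genes, so the share higher was below the background. Tnfaip3, the feedback inhibitor of NF-kappaB also called A20, lay at 289, 941 and 1674 CPM in mock and 268, 371 and 241 in treated skin. Tnf, the cytokine whose mRNA tristetraprolin binds, was the 1 called higher, at 17.5, 3.72 and 3.37 against 14.2, 10.3 and 19.3 CPM, with mock replicate 1 inside the treated range. Of the interferon genes 5 of 16 were called lower, against 7.16%, and 1 higher, against 7.97%. The 1 was Cxcl10, a chemokine induced by interferon. Cxcl10 was the only one of them called by DESeq2 with all 6 libraries, at 17.9, 14.3 and 17.4 against 32.7, 40.2 and 29.8 CPM (log2 fold change 1.06 ± 0.20, adjusted p = 0.00937), and it overlaps Art3 on the opposite strand.

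Several prostaglandin and clock genes were also called lower without mock replicate 1. Of 11 prostaglandin and lipoxygenase genes, 4 were called lower and 1 higher, against 7.16% and 7.97% of all genes. Ptges and Ptgs2, which make prostaglandin E2, lay at 5.86, 52.9 and 89.8 against 17.2, 14.4 and 6.52 CPM and at 15.3, 144 and 116 against 39.0, 58.8 and 31.9. Hpgd, which degrades it, lay at 1.99, 17.2 and 23.8 against 5.52, 5.25 and 3.52, so synthesis and breakdown genes were called lower together. Of 19 clock genes, 8 were called lower and 1 higher, against 7.16% and 7.97% of all genes, so the share higher was below the background. With 6 libraries 1 separated in each direction, near the 5.4% higher and 4.81% lower over all genes. The nuclear receptor Nr1d1 (23.9, 206 and 294 against 49.99, 61.6 and 31.4 CPM) was lower together with Arntl (18.6, 78.1 and 79.7 against 35.4, 38.5 and 34.5), the gene it represses. Bhlhe41, a clock repressor, was the 1 called higher and also separated all 6 libraries, at 8.30, 10.96 and 6.94 against 20.1, 15.3 and 18.1 CPM. Wnt signaling genes had no common direction, with 4 of 28 called higher and 5 lower (7.97% and 7.16% over all genes). With 6 libraries 1 separated in the higher direction and 4 in the lower (5.4% and 4.81%). Wnt3, a ligand of the epidermis, lay at 18.3, 100.6 and 109.8 CPM in mock and 24.5, 38.2 and 9.38 in treated skin, while the receptor Fzd1 ran the other way, at 322, 26.0 and 27.4 against 183, 152 and 393. Axin2, a target and inhibitor of Wnt signaling, did not overlap, at 45.4, 69.5 and 85.6 against 35.9, 39.6 and 24.2 CPM, and passed only without mock replicate 1 (log2 fold change -1.20 ± 0.22, edgeR adjusted p = 0.00921). Rspo3, an R-spondin of the dermal papilla, rested on few treated counts, at 2.21, 20.4 and 27.5 against 0.433, 2.62 and 0.261 CPM, and was called lower by DESeq2 (adjusted p = 0.0173) although mock replicate 1 lay below treated replicate 2.

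Receptor, MAPK and ornithine decarboxylase genes, on which TPA is known to act, are given next. Egfr, the receptor of the EGF family, lay at 350.0, 369.6 and 379 CPM in mock and 422, 363 and 359 in treated skin (log2 fold change 0.07 ± 0.17). Of the 12 receptors and ligands of this family, 0 were called higher and 1 lower without mock replicate 1. Over all genes 7.97% and 7.16% were, so the share lower was near the background. With 6 libraries 2 separated in the higher direction and 1 in the lower, against 5.4% and 4.81%. The 1 called lower was Epgn, the ligand epigen, at 45.7, 84.2 and 88.1 against 25.8, 41.7 and 25.5 CPM, with no overlap (edgeR adjusted p = 0.00494, and 0.651 with all 6 libraries). Areg, the ligand amphiregulin, lay at 13.9, 10.2 and 9.93 against 15.1, 17.5 and 15.8 CPM, also with no overlap, and stayed under the fold threshold (log2 fold change 0.51 ± 0.23). Immediate early genes were not higher as a group. Fos (1001, 1873 and 2348 against 1142, 1627 and 847 CPM), Egr1 (1045, 1044 and 1494 against 1033, 1118 and 923) and Fosl1 (85.5, 72.2 and 118 against 56.2, 83.9 and 69.8) overlapped. Of 33 genes of the MAPK list, 6 were called higher and 4 lower without mock replicate 1, against 7.97% and 7.16% of all genes, with mock replicate 1 nearer treated skin in all 10. With 6 libraries 0 of the 33 separated in the higher direction and 4 in the lower, against 5.4% and 4.81%. Those 4 were Spry1, Spry2, Spred2 and Ier2, and 0 of them passed by DESeq2. Spry1, a feedback inhibitor of receptor tyrosine kinases, lay at 61.4, 94.6 and 113 against 42.0, 46.8 and 47.3 CPM (log2 fold change -0.96 ± 0.24 with 6 libraries, DESeq2 adjusted p = 0.106). Spry2, its relative, lay at 40.6, 40.9 and 42.7 against 25.6, 29.3 and 24.1 CPM, with the mock libraries close together (log2 fold change -0.64 ± 0.16, DESeq2 adjusted p = 0.105). Odc1, ornithine decarboxylase, a classical TPA-induced enzyme, lay at 316, 95.3 and 92.0 against 164, 125 and 119 CPM and passed in neither fit (edgeR adjusted p = 0.963 and 0.0572), with log2 fold changes of opposite sign (-0.30 and 0.57).

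DMBA is metabolized through the aryl hydrocarbon receptor, and its products can engage NRF2 and p53. Of 9 genes of the aryl hydrocarbon receptor list, 2 were called higher and 1 lower without mock replicate 1, against 7.97% and 7.16% of all genes. Cyp1b1, the cytochrome P450 that activates DMBA, lay at 33.3, 23.7 and 17.3 CPM in mock and 44.3, 57.9 and 54.1 in treated skin, with no overlap, and was called without mock replicate 1 (log2 fold change 1.38 ± 0.20, edgeR adjusted p = 0.00452) and not with it (1.08 ± 0.28, adjusted p = 0.634 by edgeR and 0.128 by DESeq2). Ahr, the receptor that binds DMBA, was 26.8, 242 and 316 against 106, 140.1 and 56.7 CPM and was called lower without mock replicate 1 (edgeR adjusted p = 0.0197), with that library lowest of all. Cyp1a1, its best-known target, had 4, 2 and 3 counts in mock and 0 to 0.391 CPM in treated skin. Of 21 NRF2 and glutathione genes tested without mock replicate 1, 5 were called higher and 0 lower, against the same background. Hmox1, heme oxygenase 1, separated all 6 libraries, at 5.75, 2.94 and 2.89 against 6.71, 8.52 and 8.60 CPM, by a margin under 1 CPM between mock replicate 1 and treated replicate 1. Nqo1, a standard NRF2 target, overlapped at 3.87, 6.07 and 6.46 against 7.47, 11.8 and 5.99. Of 16 genes tested from the p53 list, 1 was called higher and 2 lower without mock replicate 1, against 7.97% and 7.16% of all genes. The 1 higher was Cdkn2b, given above, a cell cycle inhibitor of the list rather than a p53 target. With 6 libraries 1 separated in the higher direction and 2 in the lower, against 5.4% and 4.81%. The shares higher were thus near the background. Cdkn1a, the p53 target that encodes p21, lay at 82.1, 132 and 135 against 60.5, 69.7 and 74.3 CPM with no overlap and under the fold threshold (log2 fold change -0.75 ± 0.23), and Mdm2 overlapped at 91.4, 71.7 and 76.7 against 57.1, 64.9 and 89.1. Sesn2, a stress sensor, was 46.6, 58.7 and 81.8 against 30.6, 34.5 and 33.0 CPM and was called lower without mock replicate 1 (edgeR adjusted p = 0.00570).

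**Figure D4:**
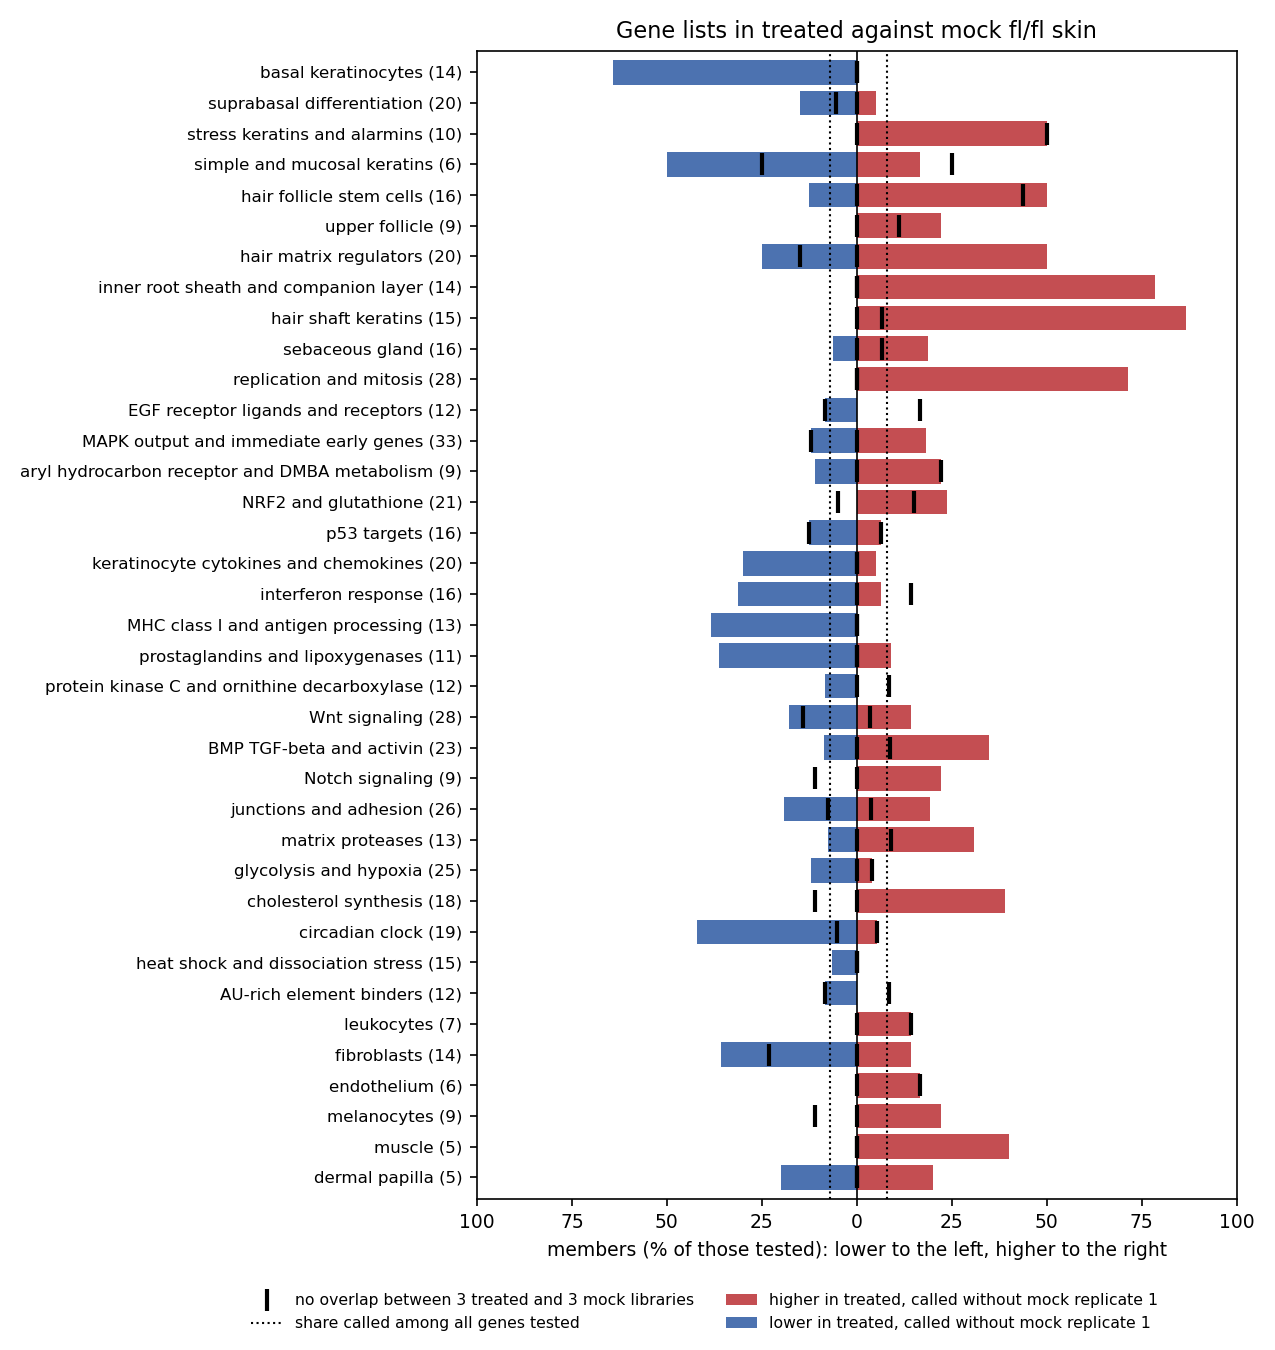
Share of each gene list's tested members (number in parentheses) called higher (red, right) or lower (blue, left) in treated skin by edgeR without mock replicate 1, in percent, with black ticks for the share in which 3 treated and 3 mock libraries do not overlap and dotted lines for the share called among all genes (7.97% and 7.16%). The bars for the inner root sheath, shaft, replication and basal lists are long while their ticks lie at or near 0, and bar and tick coincide for the stress keratins.

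Zfp36 itself lay at 152, 713 and 619.9 CPM in mock and 366, 503 and 255 in treated skin. Mock replicate 1 was the lowest library, and the treated libraries fell between it and the other mock libraries. The log2 fold change was -0.38 ± 0.56 with 6 libraries and -0.80 ± 0.27 without mock replicate 1 (adjusted p = 0.954 and 0.0667 by edgeR), so no difference passed. Of its relatives, which bind the same AU-rich elements, Zfp36l1 lay at 419, 262 and 339 against 263, 221 and 224 CPM and did not pass, and Zfp36l2 lay at 148, 370.4 and 462 against 211, 254 and 123 CPM and was called lower without mock replicate 1 (log2 fold change -1.06 ± 0.28, edgeR adjusted p = 0.0328, and 0.888 with all 6 libraries).

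The Zfp36 ΔK14 libraries, which lack Zfp36 in epidermal cells and share no library with the comparison above, gave the same treatment contrast in 3 treated and 2 distinct mock libraries. By themselves they gave 0 calls among 15891 genes (763 at an unadjusted p below 0.05 by edgeR). Their mock libraries were split in the same way, with an inner root sheath sum of 2553 CPM in mock replicate 1 and 358.6 in the other. Of 316 genes over 2-fold higher with no overlap in fl/fl skin, 287 had the same direction in ΔK14 skin (90.8%) and 116 also did not overlap there (36.7%). Of 54 genes over 2-fold lower, 49 (90.7%) and 24 (44.4%) did. Over all 15542 genes tested in both, 66.8% had the same direction and 11.8% had it without overlap. For the DESeq2 calls measured in both genotypes, 85 of 89 genes higher and 14 of 14 lower had the same direction, with median log2 fold changes of 1.89 and -2.16 in fl/fl and 1.43 and -2.08 in ΔK14 skin.

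Some of the separated genes did so in the second genotype and others did not. Krt6a lay at 37.8 and 29.8 CPM in the ΔK14 mock libraries and 147, 490.2 and 509.9 in the treated ones, and Tll1 at 0.809 and 0.359 against 5.01, 13.01 and 6.23. Bmp4 was lower there too, at 68.3 and 65.8 against 35.6, 17.6 and 11.3 CPM. Lgr5 overlapped, at 44.8 and 18.7 against 48.8, 95.8 and 35.2, as did Cxcl10 (40.5 and 19.4 against 18.4, 21.7 and 31.7) and Sox9 (97.7 and 69.3 against 77.8, 156 and 178). Krt16, which overlapped in fl/fl skin, lay at 34.5 and 108.5 CPM in ΔK14 mock skin and 96.7, 345 and 559 in treated skin. The difference between genotypes was tested directly by an interaction term over 17694 genes. edgeR called 0 of them (257 at an unadjusted p below 0.05) and DESeq2 called 0 (251), and for Krt6b, the largest of the keratin differences named here, the interaction was 3.33 ± 1.02 on the log2 scale with an edgeR adjusted p of 0.99995. No gene was therefore shown to respond differently in fl/fl skin.

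**Figure D5:**
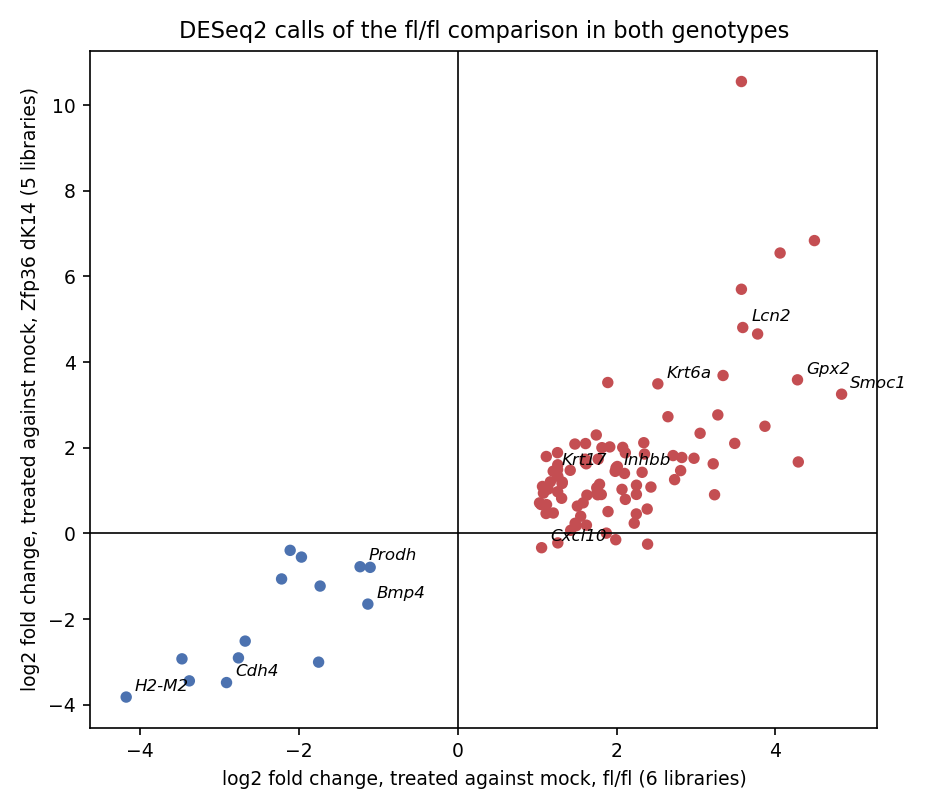
Log2 fold change of treated against mock skin in fl/fl (horizontal axis, 6 libraries) and in Zfp36 ΔK14 (vertical axis, 5 libraries) for the 103 genes called by DESeq2 in fl/fl and tested in both, red for higher and blue for lower in fl/fl. All 14 lower genes lie below 0 on the vertical axis, and 85 of the 89 higher genes lie above it.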

How the data were processed

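RNA-seq counts of sorted epidermal cells were analysed. Raw gene counts were deposited by the authors for 52636 Ensembl gene IDs with symbols, made from Ovation SoLo libraries sequenced on Illumina HiSeq. The submitters' processing notes list Trimmomatic 0.36, STAR 2.5.3, HTSeq 0.9.1, DESeq2 and mm10 without roles, and the counting's strand setting is not given in the sources used here. The total count per library ranged from 4124233 to 9617985 in the 6 fl/fl skin libraries. Depth limits genes with few counts. The ± values are standard errors of the edgeR fit and include the spread between libraries, whereas floors (3 counts) cover counting error only.

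Counts were filtered with filterByExpr, scaled by TMM and tested with edgeR 4.0.16 (quasi-likelihood, treated against mock, only the groups compared; R 4.3.3), as the study's methods name edgeR. A gene was called at a Benjamini-Hochberg adjusted p below 0.05 with a fold change over 2. CPM were computed on TMM-scaled library sizes of all 17 distinct libraries. Alternatives were DESeq2 1.42.0, the exact test, limma 3.58.1 (voom), other scaling and filters, one fit of all groups, the replicate number as a block and leaving out each library. Scripts were tested on simulated data. Gene positions came from GENCODE M21 (52403 IDs matched), promoters from RefSeq (165 of 235 genes chosen by the naming rule matched).

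The naming rule took the Zfp36 family, up to 12 genes per direction with the smallest p and no overlap in the fits with 6 and 5 libraries at 5 CPM or more, up to 8 per direction by DESeq2, and up to 4 called or 2 most abundant members of each list. The text names a part of these, and other members of the lists where they complete a pathway. The comparison, lists, rule and the fit without mock replicate 1 were chosen with earlier results of these data known. Identical Zfp36 ΔK14 mock replicates 2 and 3 were counted as 1 library. Tumor libraries entered only the scaling and the fit of all groups.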

Additional observations from a re-analysis of the deposited data

How the results depend on the processing

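With all 6 libraries the quasi-likelihood count of calls (0) became 118 with DESeq2, 104 with the exact test, 1976 with limma-voom and sample quality weights, 30 with no filter on low counts and 2 in one fit of all groups. It stayed 0 with RLE scaling, with a mean count of at least 10, with no fold threshold and with voom without weights, an alternative added after seeing the data. Leaving out 1 library each time gave 0 to 2587 calls, and only mock replicate 1 moved it from 0. Without mock replicate 1 the count of 2587 became 472 in one fit of all groups and 4064 with no fold threshold, and leaving out a further library gave 932 (mock replicate 3) to 2571, with 1651 without treated replicate 1. The fit without mock replicates 1 and 2 or 1 and 3 leaves 1 mock library, assumed to vary like the treated ones. DESeq2, the exact test, voom, RLE and the filters gave 2456 to 3376. The interaction stayed at 0 in every setting, with 1054 genes at an unadjusted p below 0.05 without replicate 1 of both mock groups. Correlations of same-numbered deviations from the group means were -0.0785, 0.422 and -0.39. They cannot show or exclude pairing by replicate number, because the mock mean includes mock replicate 1, which stood apart. A replicate block gave 0 calls with 6 libraries (580 unadjusted), 2183 without mock replicate 1 and 0 for the interaction. In the gene results for which these alternatives were run, no direction reversed. Between the fits with and without mock replicate 1, the log2 fold change turned from negative to positive in Gpnmb (-0.08 and 2.504), Odc1 (-0.30 and 0.57) and Dcn (-0.38 and 1.85), of which Gpnmb and Dcn were called without that library. With 6 libraries 103 gene results passed in an alternative though not in the quasi-likelihood test and 303 stayed as they were, and without mock replicate 1 194 lost their call in an alternative and 1519 stayed. Causes were not tested. Genes with few counts in mock replicates 2 and 3 have uncertain fold changes at this depth.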

Other observations

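Skint genes, a family expressed by keratinocytes that shapes epidermal T cells, were chosen after their values were seen. Of the 11 tested without mock replicate 1, 5 were called lower in treated skin by edgeR and 0 higher, against 7.16% and 7.97% of all genes. With 6 libraries 0 separated, against 5.4% of all genes higher and 4.81% lower, though DESeq2 called Skint11 lower. Its edgeR log2 fold change was -3.47 in fl/fl and -2.93 in ΔK14 skin. Dlx genes, also chosen afterwards, had 6 of 7 called higher and 0 lower, against 7.97% and 7.16% of all genes, and again 0 separated all 6. Among 45 keratin genes, 22 were called higher and 7 lower without mock replicate 1, against 7.97% and 7.16% of all genes. Among the keratin genes tested with 6 libraries, 3 lay higher and 2 lower in every treated library, near the 5.4% and 4.81% over all genes. The 2 ΔK14 mock libraries had summed stress keratin and alarmin levels of 634 and 475.3 CPM, and the ΔK14 treated libraries had 1330, 2791 and 3871 CPM, against 1118 to 1470 CPM in treated fl/fl skin.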
